A study of Mus musculus with 14 samples.

Results

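Orexin (Hcrt), melanin-concentrating hormone (Pmch), galanin (Gal), the RF-amide precursor Npvf, cholecystokinin (Cck), brain-derived neurotrophic factor (Bdnf), PACAP (Adcyap1), the GLP-1 receptor (Glp1r) and tachykinin 1 (Tac1) act in arousal, reward or feeding. These 9 genes, of 17097 measured, were chosen by name, and each was represented by the probe set that named only it and had the highest mean. The study measured whole hypothalamus of 12-week-old mice on 14 Affymetrix arrays, with Mfn1, a protein of mitochondrial fusion, deleted in POMC neurons or present. The groups were knockout fasted for 16 h (n = 3), control fasted for 16 h (n = 3), knockout randomly fed (n = 4) and control randomly fed (n = 4). All mice had a background mixed from 3 strains, C57Bl/6J, FVB/N and 129. The comparisons ask how a fast and the deletion relate to hypothalamic transcripts, and whether the fasting difference depends on genotype. The labels name the deletion as POMC-specific, and the sources used here give neither the Cre line nor the alleles that control mice carry. POMC neurons are a small share of hypothalamic cells and the arrays held RNA of the whole region, so in such bulk RNA fewer cells of a type and less RNA per cell cannot be told apart. Whether an array holds RNA of a single mouse is not stated in the labels, and the p-values cover only the spread between samples, which may be technical.

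Orexin and MCH are made by separate neuron populations of the lateral hypothalamic area: orexin neurons sustain wakefulness and arousal, and MCH neurons are tied to sleep, energy storage and food intake. Galanin is made by several hypothalamic populations and stimulates feeding when injected. Cholecystokinin, PACAP, GLP-1 receptor agonists and BDNF reduce food intake in rodents, while the products of Npvf and Tac1 (RFRP peptides and substance P) act in reproductive, stress and sensory circuits as well.

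The stretch just before the transcription start is shown for 5 of the genes. Hcrt and Pmch correlated by Pearson's r across arrays, Npvf had the largest genotype difference, and Cck and Tac1 lay at opposite ends of the same array. Each line gives the 250 bases before the RefSeq start, read 5′ to 3′ on the gene's own strand from the RefSeq table of GRCm38.p6. The windows are chr11:100762932-100763181 on the minus strand for Hcrt, chr10:88090822-88091071 on the plus strand for Pmch, chr6:50654446-50654695 on the minus strand for Npvf, chr9:121495695-121495944 on the minus strand for Cck and chr6:7554811-7555060 on the plus strand for Tac1. Capitals mark matches, on either strand, to TATAAA, to the cAMP-response elements TGACGTCA and TGACG (the shorter lies within the longer), to the E-box CACGTG, to the FOXO motif GTAAACA and to the palindromic glucocorticoid response element.
Hcrt: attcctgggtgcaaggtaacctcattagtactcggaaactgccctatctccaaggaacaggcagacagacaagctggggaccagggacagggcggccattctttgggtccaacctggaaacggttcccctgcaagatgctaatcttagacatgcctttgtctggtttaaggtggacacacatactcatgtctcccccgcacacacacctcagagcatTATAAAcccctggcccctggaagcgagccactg
Pmch: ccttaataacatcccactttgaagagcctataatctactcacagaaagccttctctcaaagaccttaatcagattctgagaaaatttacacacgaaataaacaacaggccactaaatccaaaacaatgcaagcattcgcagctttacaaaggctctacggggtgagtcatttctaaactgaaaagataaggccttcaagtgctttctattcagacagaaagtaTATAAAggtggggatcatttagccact
Npvf: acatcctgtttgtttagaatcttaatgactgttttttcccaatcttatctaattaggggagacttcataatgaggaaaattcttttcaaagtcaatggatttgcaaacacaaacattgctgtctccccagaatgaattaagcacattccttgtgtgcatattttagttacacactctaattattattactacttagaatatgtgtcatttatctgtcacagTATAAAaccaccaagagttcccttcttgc
Cck: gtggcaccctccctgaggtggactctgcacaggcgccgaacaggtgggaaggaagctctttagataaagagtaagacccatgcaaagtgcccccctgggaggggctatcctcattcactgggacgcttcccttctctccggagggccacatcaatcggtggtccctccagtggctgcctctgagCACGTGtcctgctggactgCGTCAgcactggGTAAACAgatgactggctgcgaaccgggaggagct
Tac1: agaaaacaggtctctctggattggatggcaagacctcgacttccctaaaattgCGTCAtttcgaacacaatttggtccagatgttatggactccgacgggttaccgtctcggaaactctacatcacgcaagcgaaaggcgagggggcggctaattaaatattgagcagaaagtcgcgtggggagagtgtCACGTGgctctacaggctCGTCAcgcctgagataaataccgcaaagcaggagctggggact
Hcrt, Pmch and Npvf each held TATAAA, 33 to 28 bases before the start in Hcrt, 27 to 22 in Pmch and 29 to 24 in Npvf. Adcyap1 was the other member with this motif, which 12.4% of all 32851 windows held. Cck and Tac1 each held CACGTG, 66 to 61 bases before the start in Cck and 61 to 56 in Tac1, against 6.02% of all windows. TGACG stood in windows of Adcyap1, Bdnf, Cck and Tac1, against 17.8% of all windows, and GTAAACA in the window of Cck, against 3.17%. TGACGTCA (1.55% of all windows) and the glucocorticoid response element (0.00913%) had no match in the 16 windows of the 9 genes. Gal, which correlated with Pmch more closely than Hcrt did, is not shown, and its window held none of these motifs. A match is a description of these letters and not a measured site.

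Mfn1 itself was level across the groups of whole hypothalamus, at 9.06 ± 0.04 in knockout fasted, 9.06 ± 0.01 in control fasted, 9.06 ± 0.04 in knockout fed and 9.04 ± 0.06 in control fed (log2, SD), so these arrays give no check of the genotype labels. Array medians lay between 4.98 and 5.05, and background signal lay at 3.64, the median of 23 GC-matched probe sets that have no target. Control fed replicate 1 stood apart: its score for 12 measured of 14 cortex and hippocampus markers, the mean deviation from each marker's mean over all arrays, was 0.72. Knockout fed replicate 4 had 0.41, and the other 12 arrays lay between -0.20 and 0.01. Its score for 22 measured of 25 markers of hypothalamic nuclei was -0.35, where the other 13 lay between -0.07 and 0.15, so the label hypothalamus had less marker signal behind it there. The numbers in the sample titles form a low run with the 6 fasted arrays and knockout fed replicate 1, and a high run with the other 7 fed arrays. What these numbers stand for was not stated.

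None of the 9 genes passed an adjusted p of 0.05 (limma, Benjamini-Hochberg over 17097 genes) in any of the 7 comparisons. For fasted against fed mice, averaged over genotypes, 0 of 9 passed while 10% of all genes did, and 0 of 9 had an unadjusted p under 0.05, against 26% of all genes. Within one genotype, 0 of 9 passed for fasted against fed knockout mice, where 0.696% of all genes did, and 0 of 9 for fasted against fed control mice, where 2.76% did. Unadjusted p was under 0.05 for 0 of 9 in knockout mice (16.5% of all genes) and for 1 of 9, Hcrt, in control mice (17.5%). The median averaged fasting difference of the 9 genes was 0.01 on the log2 scale, against 0.00 over all genes tested. Knockout against control gave 0 of 9 averaged over feeding states (0.00585% of all genes), 0 of 9 in fasted mice (0% of all genes) and 0 of 9 in fed mice (0.00585%). There the unadjusted p was under 0.05 for 2 of 9, Npvf and Bdnf, averaged (4.65% of all genes), 1 of 9 in fasted mice (3.86%) and 2 of 9 in fed mice (4.62%). For the interaction, in which the fasting difference in control mice is subtracted from that in knockout mice, 0 of 9 passed (0% of all genes) and 0 of 9 had an unadjusted p under 0.05 (3.82%). The arrays of both groups did not overlap for 0 of 9 genes in the averaged fasting comparison (3.4% of all genes), 0 of 9 in that of knockout mice (13%), 0 of 9 in that of control mice (16.5%), 0 of 9 in the averaged genotype comparison (0.0585%) and 0 of 9 in that of fed mice (2.46%).

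**Figure D1:**
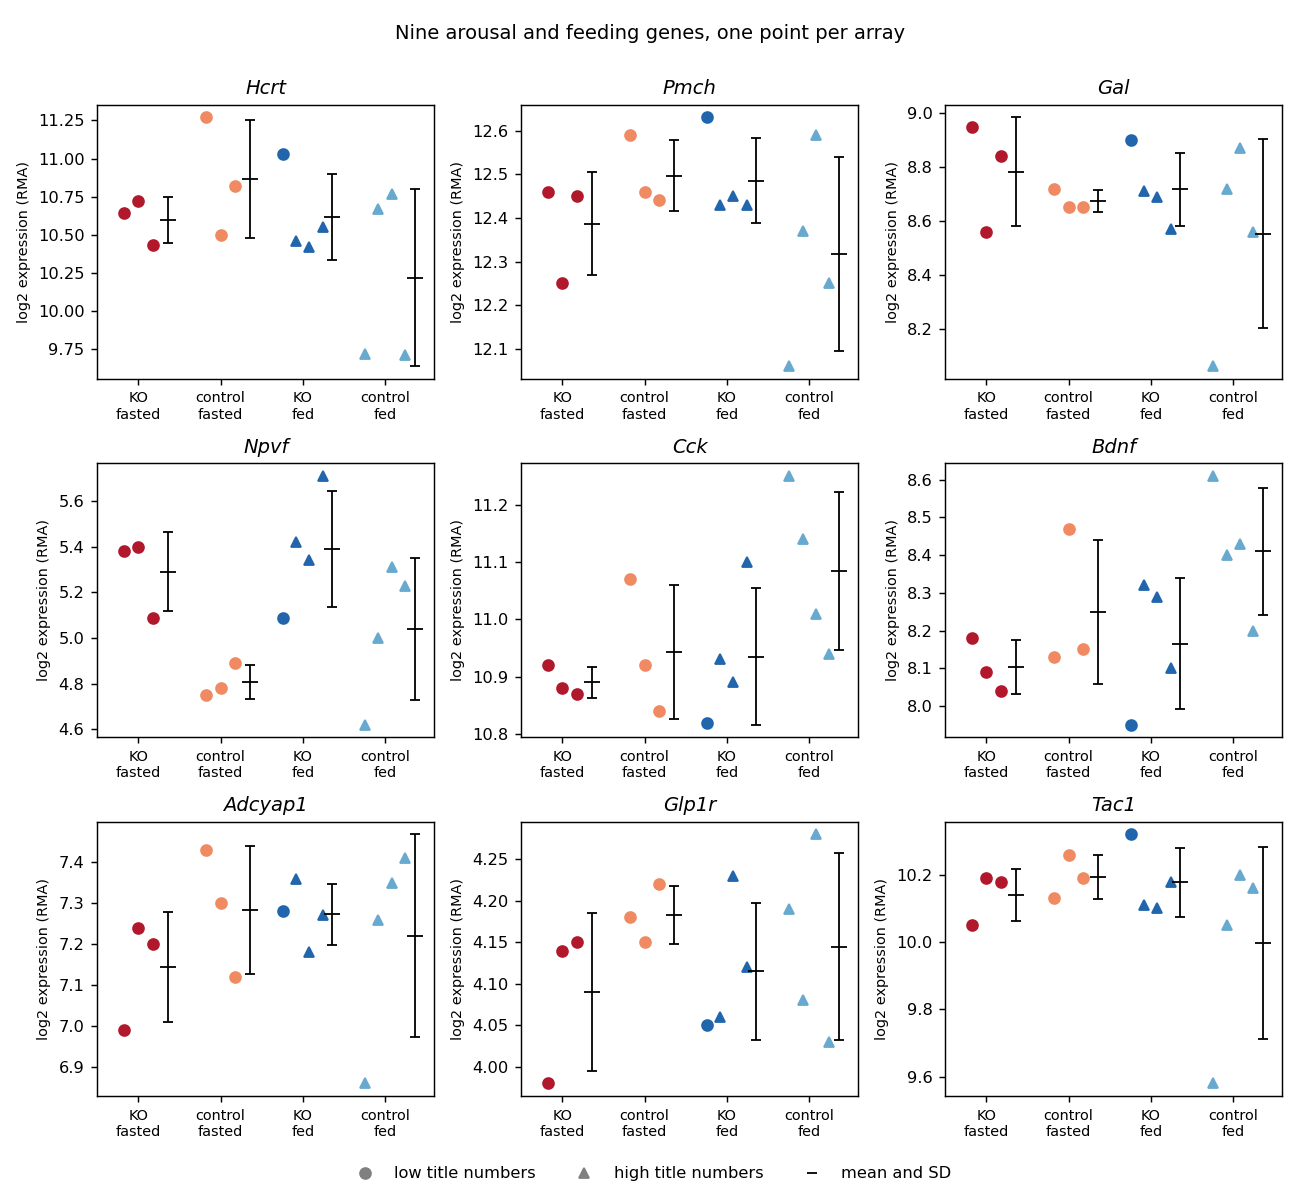
The log2 level of each of the 9 genes on every array (points; circles for the low and triangles for the high run of title numbers), with group means and SD (bars), for knockout (KO) fasted, control fasted, KO fed and control fed mice (n = 3, 3, 4 and 4). Points run from replicate 1 on the left; control fed replicate 1 lay below every other array for Pmch, Gal, Npvf, Adcyap1 and Tac1 and above every other for Cck and Bdnf.

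Hcrt, the precursor of both orexins, had values of 10.64, 10.72 and 10.43 in knockout fasted mice, against 11.27, 10.50 and 10.82 in control fasted mice. In fed mice it had 11.03, 10.46, 10.42 and 10.55 in knockout, against 9.72, 10.67, 10.77 and 9.71 in control. A pair of fed control arrays lay about 1 log2 unit below the other pair, while the knockout arrays stayed closer together and all groups overlapped. Fasted minus fed was 0.65 ± 0.27 (SE) in control mice, with a 95% interval of 0.07 to 1.22 and a limma adjusted p of 0.228. In knockout mice it was -0.02 ± 0.27 (-0.60 to 0.56; adjusted p 0.985). The difference between the genotypes' fasting differences was -0.66 ± 0.38, and its interval, -1.48 to 0.15, held 0 (adjusted p 0.9999). Averaged over genotypes the fasting difference of Hcrt was 0.31 ± 0.19 (-0.10 to 0.72; adjusted p 0.324).

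The fasting difference of Hcrt in control mice lay between 0.09 and 0.83 under 22 alternative settings and kept its sign in each. It was 0.44 without control fasted replicate 1, 0.48 without control fed replicate 1, and 0.09 with the low or high run of title numbers as a covariate. With that covariate the averaged Hcrt difference turned to -0.17 (adjusted p 0.93). All control fasted arrays are in the low run and all control fed arrays in the high run. Control arrays alone therefore cannot separate the run from feeding. In each fit with the run, its coefficient comes only from knockout fed replicate 1 against the other knockout fed arrays. For Hcrt these were at 11.03 and at 10.42 to 10.55. Within the low run, Hcrt was between 10.43 and 10.72 in knockout fasted mice and at 11.03 in the fed knockout array. Knockout minus control was -0.27 ± 0.29 for Hcrt in fasted mice (adjusted p 1), or -0.06 without control fasted replicate 1, and 0.40 ± 0.25 in fed mice (-0.14 to 0.93; adjusted p 0.995).

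Hcrt varied more between arrays of one group than most genes did. Its within-group SD was 0.40, larger than that of 99.0% of all genes and of 99.7% of the 997 genes whose mean lay within 0.5 log2 units of its own, which had a median SD of 0.06. Its values spanned 1.56 log2 units over the 14 arrays, a 2.95-fold range. Pmch, Gal, Tac1 and Cck also varied more than most genes of like level: their within-group SDs of 0.15, 0.23, 0.17 and 0.11 exceeded those of 97.7%, 96.6%, 97.2% and 94.5% of such genes. Glp1r, near background, had an SD of 0.09, above that of 13.0% of such genes. These SDs pool all groups, and for the other genes named here the SD was largest in control fed mice, the group of control fed replicate 1. There it was 0.58 for Hcrt, 0.22 for Pmch, 0.35 for Gal, 0.285 for Tac1 and 0.14 for Cck. In the remaining groups Tac1 had SDs of 0.065 to 0.101 and Gal of 0.04 to 0.20.

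Pmch, which encodes MCH, had 12.46, 12.25 and 12.45 in knockout fasted mice, against 12.59, 12.46 and 12.44 in control fasted mice. In fed mice Pmch had 12.63, 12.43, 12.45 and 12.43 in knockout, against 12.06, 12.37, 12.59 and 12.25 in control. The groups overlapped, and 13 of the 14 arrays lay within 0.4 log2 units of one another. Fasted minus fed was 0.04 ± 0.07 averaged over genotypes (-0.12 to 0.20; adjusted p 0.782). This Pmch value was 0.00 without control fed replicate 1, -0.04 with the cortex and hippocampus score in the fit and -0.13 with the title-number run. In control mice it was 0.18 ± 0.11 (-0.05 to 0.41; adjusted p 0.408), in knockout mice -0.10 ± 0.11 (-0.33 to 0.13; adjusted p 0.700), and the interaction was -0.28 ± 0.15 (-0.60 to 0.04; adjusted p 0.9999). The order of the 4 group means was the same for Hcrt and Pmch, with control fasted highest, then knockout fed, knockout fasted and control fed. No neighbours in that order differed beyond their spread.

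Gal encodes galanin. Its values were 8.95, 8.56 and 8.84 in knockout fasted mice, against 8.72, 8.65 and 8.65 in control fasted mice. In fed mice they were 8.90, 8.71, 8.69 and 8.57 in knockout, against 8.06, 8.72, 8.87 and 8.56 in control. The groups overlapped, and the value of 8.06, on control fed replicate 1, lay 0.50 below the next lowest array. Knockout minus control was 0.17 ± 0.14 in fed mice (-0.14 to 0.47; adjusted p 0.995) and 0.00 without that array. Fasted minus fed was 0.09 ± 0.11 (-0.14 to 0.33; adjusted p 0.643) averaged over genotypes. For Gal this was 0.01 without control fed replicate 1, -0.07 with the cortex and hippocampus score in the fit and -0.12 with the title-number run.

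Npvf encodes the RF-amide related peptides, which in rodents act on gonadotropin release and feeding. Its values were 5.38, 5.40 and 5.09 in knockout fasted mice, against 4.75, 4.78 and 4.89 in control fasted mice. In fed mice they were 5.09, 5.42, 5.34 and 5.71 in knockout, against 4.62, 5.0, 5.31 and 5.23 in control. Every knockout fasted array lay above every control fasted array, while the fed groups overlapped. Such separation was seen for 1 of the 9 genes in fasted mice, against 7.64% of all genes. Over both feeding states Npvf averaged 5.35 ± 0.21 (SD, n = 7) in knockout mice and 4.94 ± 0.26 (SD, n = 7) in control mice.

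The averaged knockout minus control difference of Npvf was 0.42 ± 0.11 on the log2 scale, with an interval of 0.17 to 0.66. Across all genes it did not pass (limma adjusted p 0.860), and 1 gene of the 17097 did. The difference was 0.48 ± 0.17 in fasted mice (0.11 to 0.85; adjusted p 1) and 0.35 ± 0.15 in fed mice (0.03 to 0.67; adjusted p 0.995). It was 0.21 in fed mice without control fed replicate 1, and 0.10 without both arrays of high cortex and hippocampus score. The score of 8 measured of 10 choroid plexus markers did not overlap between genotypes in fasted mice and overlapped in fed mice, and 0 of the 8 markers passed in any genotype comparison. It was 0.73 to 0.82 in knockout fasted against -1.24 to -0.07 in control fasted mice, and -1.18 to 1.45 in knockout fed against -1.35 to 0.62 in control fed mice. With this score in the fit, the averaged Npvf difference was 0.43 (adjusted p 0.658). Npvf had a mean of 5.14, below the 40% quantile of gene means at 5.20, and below 5.28, the highest mean of the 23 probe sets with no target, so its values lie within the range of background signal. For Npvf, fasted minus fed was -0.17 ± 0.11 (-0.41 to 0.08; adjusted p 0.389), and 0.18 (adjusted p 0.842) with the title-number run in the fit.

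**Figure D2:**
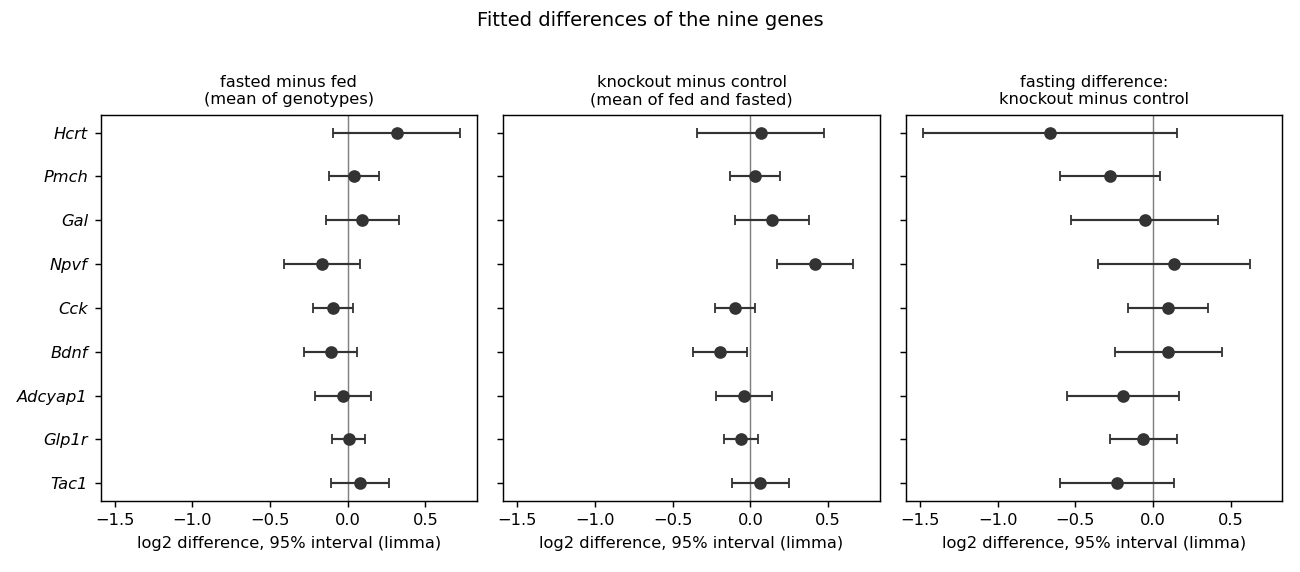
Log2 differences of the 9 genes with 95% intervals from limma, for fasted minus fed averaged over genotypes, knockout minus control averaged over feeding states, and the interaction. None passed an adjusted p of 0.05, and the averaged genotype intervals of Npvf (0.17 to 0.66) and Bdnf (-0.37 to -0.02) exclude 0 without adjustment.

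Bdnf, a neurotrophin that in mice restrains feeding through the receptor TrkB, had 8.18, 8.09 and 8.04 in knockout fasted mice, against 8.13, 8.47 and 8.15 in control fasted mice. In fed mice Bdnf had 7.95, 8.32, 8.29 and 8.10 in knockout, against 8.61, 8.40, 8.43 and 8.20 in control. The knockout values were lower on average in both states, with overlap in each. The averaged knockout minus control difference was -0.20 ± 0.08 (-0.37 to -0.02; limma adjusted p 0.9995), with -0.15 ± 0.12 in fasted and -0.25 ± 0.11 in fed mice. A second probe set of Bdnf had 6.54, 6.13 and 6.60 in knockout fasted, against 6.34, 6.90 and 6.28 in control fasted mice, and 6.17, 6.80, 6.82 and 6.68 in knockout fed, against 7.16, 6.94, 7.04 and 6.64 in control fed mice. It overlapped between all groups as well, and the mean of both probe sets gave -0.20 (adjusted p 0.999). With the choroid plexus score in the fit the Bdnf difference was -0.34 (adjusted p 0.485); the part of that score in the result was not tested. Fasted minus fed was -0.11 ± 0.08 for Bdnf (-0.28 to 0.06; adjusted p 0.420), -0.21 (adjusted p 0.212) for the mean of both probe sets, and 0.14 (adjusted p 0.822) with the title-number run in the fit.

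Cck, a peptide of satiety circuits that is also made in cortical neurons, had 10.92, 10.88 and 10.87 in knockout fasted mice, against 11.07, 10.92 and 10.84 in control fasted mice. In fed mice Cck had 10.82, 10.93, 10.89 and 11.10 in knockout, against 11.25, 11.14, 11.01 and 10.94 in control. The groups overlapped. In each fasted group the array with the top Cck value had the lowest cortex and hippocampus score of its group. In each fed group the array with the top Cck value was the one with the highest score. Fasted minus fed was -0.09 ± 0.06 averaged (-0.22 to 0.04; adjusted p 0.355), -0.04 without both arrays, -0.02 with the cortex and hippocampus score in the fit and 0.04 with the title-number run. Knockout minus control was -0.10 ± 0.06 averaged (-0.23 to 0.03; adjusted p 0.9995), the same -0.10 without both arrays, and -0.23 (adjusted p 0.466) with the choroid plexus score in the fit.

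Tac1 encodes substance P and neurokinin A. It had 10.05, 10.19 and 10.18 in knockout fasted mice, against 10.13, 10.26 and 10.19 in control fasted mice. In fed mice Tac1 had 10.32, 10.11, 10.10 and 10.18 in knockout, against 9.58, 10.05, 10.20 and 10.16 in control. Leaving aside the value of 9.58 on control fed replicate 1, the arrays lay between 10.05 and 10.32, and the groups overlapped. Fasted minus fed was 0.08 ± 0.09 averaged (-0.11 to 0.26; adjusted p 0.609), or 0.01 without that array and -0.09 with the title-number run in the fit, and in control mice it was 0.20 ± 0.12, or 0.06 without that array. A second probe set of Tac1 lay between 3.84 and 4.25 on all arrays, close to background.

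Adcyap1 encodes PACAP, a peptide of the ventromedial hypothalamus among other sites. It lay between 6.99 and 7.24 in knockout fasted mice, against 7.12 to 7.43 in control fasted mice, and between 7.18 and 7.36 in knockout fed mice, against 6.86 to 7.41 in control fed mice. The ranges overlapped in every comparison. Its averaged differences were -0.04 ± 0.08 for genotype (-0.22 to 0.14; adjusted p 0.9995) and -0.03 ± 0.08 for fasting (-0.21 to 0.15; adjusted p 0.847). Without control fed replicate 1 the Adcyap1 differences were -0.10 for genotype and -0.09 for fasting, and with the cortex and hippocampus score in the fit the fasting difference was -0.14. Glp1r, the receptor through which GLP-1 acts on feeding centres, lay between 3.98 and 4.28 on all 14 arrays, close to background. Its averaged differences were -0.06 ± 0.05 for genotype (-0.17 to 0.05) and 0.01 ± 0.05 for fasting (-0.10 to 0.11), and a probe set this dim would show little of a change in Glp1r.

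**Figure D3:**
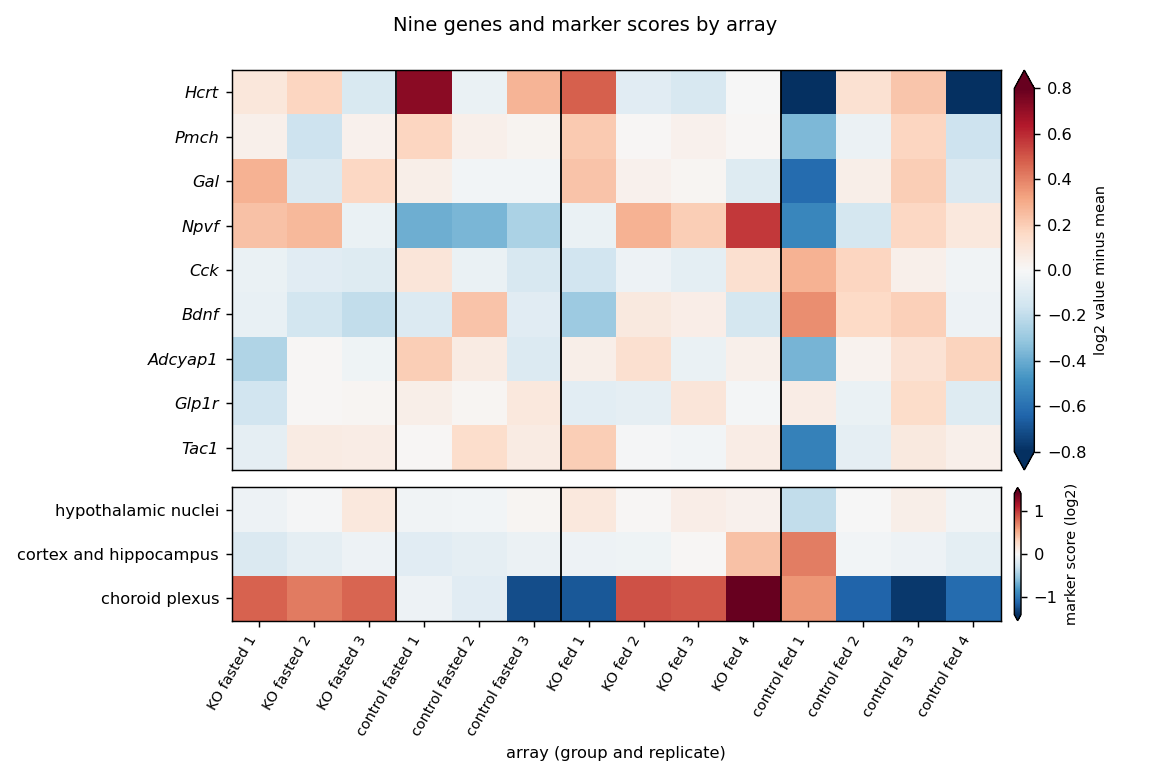
Deviation of each of the 9 genes from its own mean over the 14 arrays (log2 units, colour), with marker scores of the arrays below, the arrays ordered as knockout (KO) fasted, control fasted, KO fed and control fed; values past the ends of a scale take its end colour. Control fed replicate 1 shows low Hcrt, Pmch, Gal, Npvf, Adcyap1 and Tac1 beside high Cck and Bdnf, with a cortex and hippocampus score of 0.72.

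Control fed replicate 1 was the lowest of all arrays for 5 of the 9 genes (Pmch, Gal, Npvf, Adcyap1 and Tac1) and the highest for 2 (Cck and Bdnf), and Hcrt was lower on 1 array only. Over all genes this array was lowest for 6.73% and highest for 9.34%. The part of tissue content in these values was not tested. Without that array, knockout minus control in fed mice was 0.23 for Hcrt, 0.08 for Pmch, 0.04 for Tac1 and -0.07 for Adcyap1, against 0.40, 0.17, 0.18 and 0.05 with it. For Cck the corresponding values were -0.10 without and -0.15 with the array, and for Bdnf -0.18 and -0.25. With all arrays and the choroid plexus score in the fit, this fed difference was 0.71 for Hcrt, 0.30 for Pmch and 0.39 for Gal. It was 0.36 for Tac1, 0.13 for Adcyap1, -0.28 for Cck and -0.39 for Bdnf. None passed, and the part of that score was not tested.

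By Pearson's r, Hcrt and Pmch deviated from their group means together, while their rank correlation did not pass. Over the 14 arrays Pearson's r was 0.76 (permutation p 0.00141, adjusted over the 36 pairs of the 9 genes 0.0254), and Spearman's rho was 0.63 (permutation p 0.0173, adjusted 0.217). Without the 2 arrays farthest from the median of Hcrt deviations, r was 0.67 (permutation p 0.0169). These were control fed replicates 3 and 2, so control fed replicate 1 stayed in. Pmch and Gal were tied more closely, with r of 0.93 (permutation p 1e-05, the smallest that 100000 permutations can give; adjusted 0.00036) and rho of 0.84 (permutation p 0.0003, adjusted 0.0108), and r of 0.86 without the 2 farthest arrays. Adcyap1 and Tac1 had r of 0.78 (permutation p 0.00294, adjusted 0.0353) and rho of 0.59 (adjusted 0.217), but r of 0.53 (permutation p 0.0804) without the 2 farthest arrays. Leaving out the arrays farthest in the first gene of a pair narrows its range, which can itself lower r. The fall therefore does not show whether the relation rests on those arrays. The other 33 pairs did not pass by r. Pmch with Gal was the pair that also passed by rho. Taking out 4 group means leaves 10 residual degrees of freedom among the 14 deviations. The permutation p-values of the deviations do not allow for this and may be too small.

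Within the low and high runs of title numbers (7 arrays each) r was taken from the values themselves, with group means left in. In the low run r was 0.56 for Hcrt with Pmch (exact permutation p 0.187) and 0.58 for Pmch with Gal (exact p 0.166). In the high run these were 0.88 (exact p 0.0131) and 0.93 (exact p 0.00556), with an adjusted p of 0.12 for both. The sign of r for these values was the same in each run, and the pairs did not pass within either after adjustment. These values still hold group differences, so their r does not test the deviations within a run. Without both arrays of high cortex and hippocampus score r of Hcrt with Pmch was 0.68. Over both runs, again with group means left in, r of the values was 0.80 for Hcrt with Pmch (permutation adjusted p 0.0225). It was 0.84 for Pmch with Gal (permutation adjusted p 0.0144) and -0.73 for Cck with Tac1 (permutation adjusted p 0.0476). Without the 2 arrays farthest from the median these were 0.52 (permutation p 0.0823), 0.61 (permutation p 0.034) and -0.27 (permutation p 0.399). Each was nearer to none, but the narrower range can itself lower r, so whether they rest on these arrays is not shown.

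**Figure D4:**
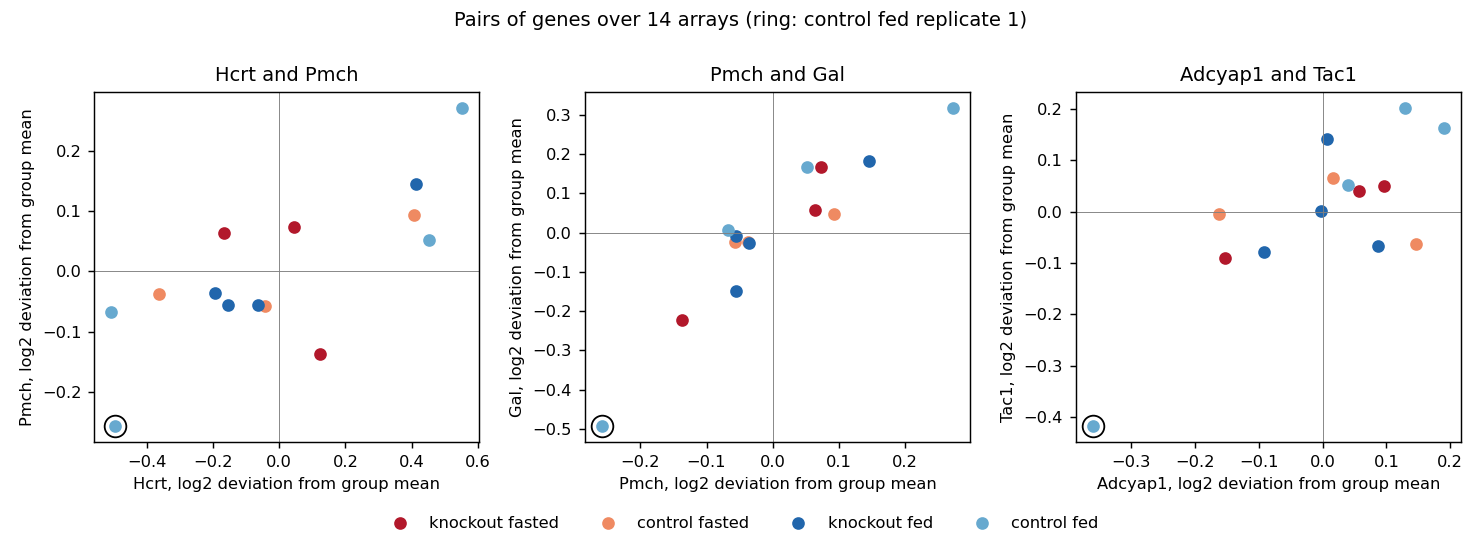
Deviations from group means (log2 units) on the 14 arrays for Hcrt with Pmch, Pmch with Gal, and Adcyap1 with Tac1, coloured by group. Each point is 1 array; r was 0.76, 0.93 and 0.78 in that order, and control fed replicate 1 (ringed) lies at the lower left of each plot.

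Of 10258 genes above the lowest 40% of means, those whose deviations were most like a member's over the 14 arrays were listed by Pearson's r, as a description. The nearest 3 were Syt14 (0.91), Slc25a12 (0.91) and Psma1 (0.87) for Hcrt, and Gal (0.93), Lta4h (0.91) and Zfp622 (0.88) for Pmch. For Gal they were Zfp622 (0.94), Pmch (0.93) and Lta4h (0.91), so Pmch and Gal each stood among the other's nearest genes. Pmch ranked 38 of 10258 for Hcrt, and Hcrt ranked 62 for Pmch. Tac1 had Ywhah (0.93), Avp (0.92), which encodes vasopressin, and Ndst2 (0.92). Npvf had Fam216a (0.89), Atg14 (0.88) and Trim45 (0.88), Cck had Vamp8 (0.90), Slc31a1 (0.89) and Prss23 (0.89), and Bdnf had Mrpl35 (0.93), Senp2 (0.88) and Lmnb2 (0.87). Adcyap1 had Ash2l (0.90), Smdt1 (0.85) and Cdc14a (0.85), and Glp1r had Rbm7 (0.90), Sh3bgrl3 (0.90) and Dnajb9 (0.89). With so many genes ranked over 14 arrays, values of this size occur for each member.

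The ligands and receptors of the same systems were a list of 40 further genes, of which 29 were measured and 11 were not analysed here. For fasted against fed mice averaged over genotypes, 1 of the 29 passed upward and 0 downward, against 10% of all genes in either direction, and 0 passed in the other 6 comparisons. The gene that passed was Gcgr, the glucagon receptor, at 4.60 ± 0.12 (SD, n = 6) in fasted and 4.36 ± 0.12 (SD, n = 8) in fed mice, a dim probe set, with a difference of 0.24 ± 0.06 (adjusted p 0.0267). Its ranges, 4.47 to 4.73 in fasted and 4.16 to 4.49 in fed mice, overlapped. The Gcgr call was lost with the title-number run as a covariate (0.13, adjusted p 0.787), with the cortex and hippocampus score as a covariate (0.21, adjusted p 0.0865) and without both arrays of high cortex and hippocampus score (0.22, adjusted p 0.0715). It was also lost without any 1 of control fasted replicates 1 and 3, knockout fasted replicates 1 and 2 or knockout fed replicate 3, where the Gcgr difference was 0.22 to 0.25 and adjusted p reached up to 0.067.

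Among receptors of the peptides, Hcrtr1, a receptor of the orexins, averaged 5.36 ± 0.24 (SD, n = 6) in fasted and 5.11 ± 0.06 (SD, n = 8) in fed mice, a difference of 0.25 ± 0.09 that did not pass (adjusted p 0.0897). Its fed mean lies below 5.28, the highest mean of the probe sets with no target, and its fasted mean just above, so Hcrtr1 is close to background signal. Hcrtr2, the other orexin receptor, differed by 0.05 and the MCH receptor Mchr1 by 0.07 between fasted and fed mice, neither past the threshold. The cholecystokinin receptors Cckar and Cckbr had fasting differences of -0.30 ± 0.10 (adjusted p 0.0771) and -0.19 ± 0.07 (adjusted p 0.0932). Cckbr was at 4.15 ± 0.06 in knockout fasted and 4.48 ± 0.21 in knockout fed mice, without overlap, as were 13% of all genes. It was at 4.14 ± 0.02 in control fasted and 4.19 ± 0.09 in control fed mice. These means lie below 5.28, the highest mean of the probe sets with no target, so the Cckbr probe set is dim. The interaction of Cckbr was -0.27 ± 0.13 (adjusted p 0.9999), so its fasting difference was not shown to depend on genotype. Galr1, Galr2 and Galr3, the galanin receptors, differed by -0.12, -0.14 and -0.02 between fasted and fed mice. The PACAP receptor Adcyap1r1 differed by -0.13 ± 0.05 (adjusted p 0.0979), the BDNF receptor Ntrk2 by 0.02, the tachykinin receptors Tacr1 and Tacr3 by 0.11 and -0.02, and the RF-amide receptor Npffr2 by -0.02, none past the threshold. Tacr2, Vipr1 and Vipr2, further receptors of the tachykinin and of the PACAP and VIP systems, were measured and did not pass either.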

How the data were processed

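RNA of 14 hypothalamus samples (150 ng each) was measured on single-colour Affymetrix arrays. The deposited values are log2 expression, for which the submitters' processing notes name RMA and affy without versions. RMA corrects background, brings arrays to a common distribution and summarises probes, which compresses differences of dim probe sets. The sources used here do not give the genome build behind the annotation. Groups came from the sample titles. Values were used as deposited, and their precision is limited by the number of arrays.

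Of 45141 probe sets, 28898 named 1 gene, 551 several and 15692 none in the platform annotation. Each of 17097 genes was represented by the probe set naming only it with the highest mean. limma 3.58.1 in R 4.3.3 fitted 1 coefficient per group over all 14 arrays (lmFit, contrasts, eBayes, 10 residual degrees of freedom), two-sided, with Benjamini-Hochberg adjustment over all genes and a threshold of 0.05. Correlations used two-sided permutation tests in Python 3.11.15 with SciPy 1.17.1, with 100000 permutations, or exact enumeration within the runs of title numbers. Values rounded to 2 decimals coincided between 2 arrays for at most 2.86% of probe sets, so no array was a copy of another. That check cannot tell whether 2 arrays hold RNA of the same mouse. Each array was counted as 1 sample. All 9 genes matched the RefSeq promoter table, with 16 windows. The fit was tested on simulated data with 200 genes changed by 0.5 log2 units. It recovered 90.5% of them in the averaged genotype comparison, 60.5% in that of fasted mice and 38.5% for the interaction. These shares are over genes of all spreads, and the SD of Hcrt exceeded that of 99.0% of genes.

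The named genes were the 9 members, pathway genes past the threshold, receptors of the member peptides and the 3 genes most like each member. The members and lists were chosen with earlier results of these data known. Alternatives were the mean of probe sets, a filter on the lowest 40% of genes, a trended and robust prior, only the groups compared, the title-number run, the 3' minus 5' difference of Gapdh and Actb control probe sets and the cortex and hippocampus score as covariates, median centring and leaving out each array.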

Additional observations from a re-analysis of the deposited data

Results flagged for a closer look

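Of 18 sets of 4 fed arrays examined (9 genes in each genotype), 1 held an array far from the other 3, where chance marks about 1 in 20 such sets. Pmch was at 12.63 on knockout fed replicate 1, against 12.43 to 12.45 on the other 3 knockout fed arrays. That array is the fed array in the low run of title numbers, and it also had the highest Tac1 value, 10.32, and the highest Hcrt value of its group, 11.03. It had the lowest Cck value, 10.82, and the lowest Bdnf value, 7.95, of all arrays.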

How the results depend on the processing

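Under 22 alternatives and 3 more chosen after seeing the data (leaving out both arrays of high cortex and hippocampus score, and the choroid plexus or hypothalamic nuclei score as a covariate), 0 of the 9 genes passed in any of the 7 comparisons, and the lowest adjusted p was 0.116, for the averaged fasting difference of Cck with the choroid plexus score. Over the alternatives 99 of 1534 differences turned sign, 19 of 63 with the title-number run as a covariate and 36 of 882 when 1 array was left out. Of 291 settings of differences over 0.2, 3 turned: averaged fasting Hcrt, 0.31 against -0.17 with the title-number run; fasting Npvf in control mice, -0.23 against 0.17 with the same covariate; and knockout minus control Hcrt in fasted mice, -0.27 against 0.05 with the choroid plexus score. The cause was not tested. With the title-number run, 15 genes of all tested passed for averaged fasting, against 1715 without it; fasting and that run nearly coincide, and their parts cannot be told apart beyond 1 array. Leaving out each array gave r of 0.65 to 0.86 for Hcrt with Pmch. The averaged Npvf genotype difference lay between 0.35 and 0.47 (adjusted p 0.31 to 0.9997) under the 20 of the 22 alternatives that gave it, and was 0.29 (adjusted p 0.735) without both arrays of high cortex and hippocampus score. The filter on low means left 7 of the 9 genes, without Npvf and Glp1r. No paired analysis was possible because no number in the sample titles occurs in more than 1 group.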
